A study of Homo sapiens with 9 samples.

Results

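The comparison described here sets 3 RNA-seq libraries of human cells depleted of CCDC97 against 3 libraries of control cells, which are 6 of the 9 libraries of the study, and follows the change of every expressed gene. Of 60664 genes in the count tables, 18299 had enough counts to be tested. The cells are HEK293 Flp-In T-REx, a derivative of human embryonic kidney cells in which an inserted gene is switched on by tetracycline. Knock-down cells carry an inducible microRNA directed against CCDC97. Control cells are the line without a microRNA, and the remaining 3 libraries are from cells that carry a microRNA against TTC33 instead. Every group, the controls included, was kept in tetracycline at 100 ng/ml for 3 days before total RNA was extracted with hot acid phenol. The study asks how depletion of TTC33 or CCDC97 affects gene expression. With a single microRNA per gene and controls that express none, loss of CCDC97, the expression of a microRNA and differences between the cell lines cannot be told apart. Whether each line is 1 clone, and whether replicates are separate cultures, is not given in the sources used here, so the p-values measure the spread between these libraries.

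CCDC97 is a little-studied coiled-coil protein that has been found with the SF3B complex, the part of the U2 small nuclear ribonucleoprotein that recognises the branch site of introns. PHF5A, a subunit of SF3B, and WDR61, a subunit of the PAF1 and SKI complexes, are partners of TTC33 in the assembly that gives the study its title. An expressed microRNA guides Argonaute proteins to messages that pair with it: long pairing leads to cleavage, and pairing of the 5' end of the microRNA alone, called the seed, lowers many messages more mildly.

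Counts assigned to genes ranged from 31296393 to 36110891 in the controls and from 21764203 to 31801574 in the knock-down. Replicates differed by more than sampling noise, with a chi-square per degree of freedom of 3.31 to 5.70 between controls and of 24.5 to 31.6 between knock-down libraries. Knock-down replicate 1 stood apart from replicates 2 and 3 in how its counts depended on GC content. Its median difference from control was -0.15 (log2) in the tenth of genes with the lowest GC content and 0.15 in the tenth with the highest, where replicates 2 and 3 gave 0.16 and 0.15 at the low end and -0.28 and -0.28 at the high end. Ribosomal RNA also varied within groups: MT-RNR2, the mitochondrial large ribosomal RNA, was at 530.1, 18.1 and 941 CPM in the controls and 793, 139 and 9463 CPM in the knock-down, where CPM are counts per 1000000 assigned counts after TMM scaling. Markers of the embryonic kidney line were present, 12 of 12 with counts and a summed level of 1655 to 1660 CPM in the controls and 1513 to 1655 in the knock-down. The summed markers of leukocytes, endothelium, liver and keratinocytes stayed below 1 CPM in every library, and those of fibroblasts were at 10.3 to 12.1 in the controls and 9.01 to 12.1 in the knock-down.

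CCDC97 itself was measured at 60.6, 60.1 and 59.5 CPM in the controls and 15.8, 15.3 and 15.7 CPM in the knock-down, where the 3 values are replicates 1, 2 and 3 throughout. All knock-down libraries lay far below all controls, and 26.0% of the control level was left (log2 fold change -1.94 ± 0.12, edgeR adjusted p = 1.2e-05; ± is the standard error). The gene lies on chromosome 19:41310189-41324883 (GRCh38, plus strand). In bulk RNA a lower level in every cell and a loss in some of the cells cannot be told apart. None of the genes within 200 kb passed: HNRNPUL1, which encodes an RNA-binding protein, gave log2 fold change 0.03 ± 0.10, edgeR adjusted p = 0.9, and TGFB1, a growth factor gene, gave log2 fold change -0.24 ± 0.18, edgeR adjusted p = 0.49. TTC33 was at 37.7, 37.1 and 38.6 CPM in the controls and 29.96, 52.5 and 47.03 CPM in the knock-down, with groups that overlap and an edgeR adjusted p of 0.63. Neither PHF5A (log2 fold change 0.04 ± 0.07, edgeR adjusted p = 0.8) nor WDR61 (log2 fold change 0.18 ± 0.09, edgeR adjusted p = 0.28) passed.

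Across the 18299 genes, 835 passed the threshold of an adjusted p of 0.05 in edgeR's quasi-likelihood test, which is 4.56% of those tested. Of these, 379 were higher with CCDC97 depleted (2.07%) and 456 were lower (2.49%). Most changes were small: the median size was 0.51 on the log2 scale, 61 genes rose and 48 fell by at least 2-fold. The 3 knock-down libraries lay entirely above or below the 3 controls for all 835, as they did for 29.9% of all genes tested. The count of calls depended on single libraries. It was 203, 219 and 241 without control replicate 1, 2 or 3, 256 and 330 without knock-down replicate 2 or 3, 1860 without knock-down replicate 1, and 1981 without replicate 1 of the TTC33 knock-down, which enters through the shared estimate of the spread. Corrected for the GC content and length of transcripts, the fit gave 3509 calls, of which 2040 were higher. Genes named below held their call in all 9 leave-one-library-out fits unless a smaller number is given, and a bare value after their name is a log2 fold change.

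**Figure D1:**
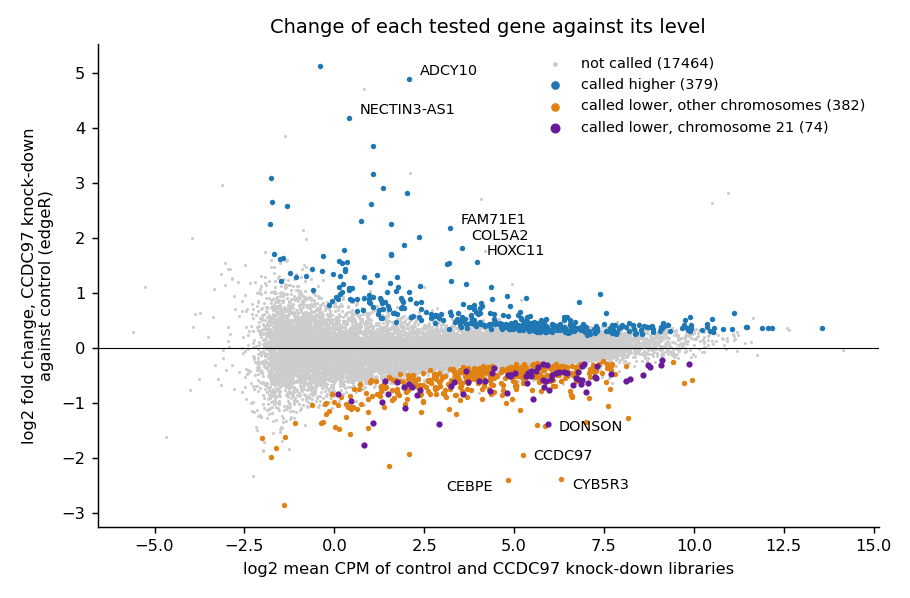
Log2 fold change of each tested gene in the CCDC97 knock-down against control (edgeR, vertical axis) against its log2 mean CPM over the 6 libraries (horizontal axis), 1 point per gene. Called genes are coloured, with the 74 lower genes of chromosome 21 apart from the 382 lower genes elsewhere, and most called genes lie within 1 log2 unit of 0.

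The deepest falls were in genes of different pathways. CYB5R3, the NADH-cytochrome b5 reductase that passes electrons to fatty acid desaturases, was at 132, 127 and 139 CPM in the controls and 29.9, 20.8 and 25.9 CPM in the knock-down. It kept 19.2% of the control level, against 26.0% for CCDC97 (log2 fold change -2.38 ± 0.18, edgeR adjusted p = 4.1e-05). The transcription factor CEBPE, known for its role in granulocyte maturation, went from 45.6, 48.1 and 49.3 to 10.8, 7.17 and 9.05 CPM and kept 18.9% (log2 fold change -2.41 ± 0.18, edgeR adjusted p = 4.1e-05). PFKP, the platelet type of phosphofructokinase and the rate-limiting step of glycolysis, was at 185, 178 and 193 CPM in the controls and 82.1, 68.9 and 66.6 CPM in the knock-down (log2 fold change -1.35 ± 0.12, edgeR adjusted p = 1.0e-04). In all 3 the ranges of the groups were far apart.

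Adhesion and junction genes were among the largest falls as well. The protocadherin PCDH19 was at 83.6, 85.8 and 84.1 CPM in the controls and 36.1, 27.7 and 30.7 CPM in the knock-down (log2 fold change -1.42 ± 0.10, edgeR adjusted p = 2.2e-05). TENM1, a teneurin that acts in synaptic partner matching, was at 72.6, 72.2 and 72.2 CPM in the controls and 26.2, 27.3 and 28.1 CPM in the knock-down (log2 fold change -1.41 ± 0.09, edgeR adjusted p = 1.1e-05), although it shares 241 exon bases with STAG2 on the other strand. AMOT, the angiomotin scaffold that binds YAP in the Hippo pathway, was at 406, 404 and 399 CPM in the controls and 181, 157 and 164 CPM in the knock-down (log2 fold change -1.27 ± 0.07, edgeR adjusted p = 5.7e-06). For PCDH19 and TENM1 the TTC33 knock-down gave log2 fold changes of -0.14 and 0.58 against the same controls, whereas for AMOT it gave -1.35. The direct contrast between both knock-downs passed for PCDH19 and TENM1 (edgeR adjusted p = 1.8e-05 and 8.5e-07) and not for AMOT (0.39).

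The other genes among the 15 with the largest falls at 5 CPM or more have varied roles. DONSON, a replication fork protein, was at 88.2, 89.8 and 86.8 CPM in the controls and 30.95, 33.7 and 36.97 CPM in the knock-down (log2 fold change -1.38 ± 0.08, edgeR adjusted p = 5.7e-06), and shares 307 exon bases with SON. RAB3B, a small GTPase of regulated secretion, was at 48.4, 51.4 and 47.8 CPM in the controls and 22.99, 20.4 and 23.9 CPM in the knock-down (log2 fold change -1.13 ± 0.09, edgeR adjusted p = 5.9e-05). ST3GAL2, a sialyltransferase, was at 36.6, 36.5 and 36.1 CPM in the controls and 20.3, 16.5 and 17.8 CPM in the knock-down (log2 fold change -1.0 ± 0.10, edgeR adjusted p = 3.1e-04). All 3 had groups that did not overlap, as every called gene did. JTB, RPS6KA4, a kinase acting downstream of MAP kinases, and KCNJ12, an inward rectifier potassium channel, had log2 fold changes of -1.21, -1.12 and -1.17 at control levels under 20 CPM. CLIC4, an intracellular chloride channel protein, was at 262, 262 and 271 CPM in the controls and 97.7, 146 and 138 CPM in the knock-down. Its fall was largest in replicate 1, and it passed in 4 of the 9 fits (log2 fold change -1.06 ± 0.21, edgeR adjusted p = 0.018, called in 4 of 9 fits). CBS, the cystathionine beta-synthase of the transsulfuration pathway, fell from 11.1, 9.93 and 11.5 to 4.92, 4.03 and 3.44 CPM (log2 fold change -1.38 ± 0.14, edgeR adjusted p = 3.1e-04), with the limit that a near-identical copy on the same chromosome can split its reads.

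**Figure D2:**
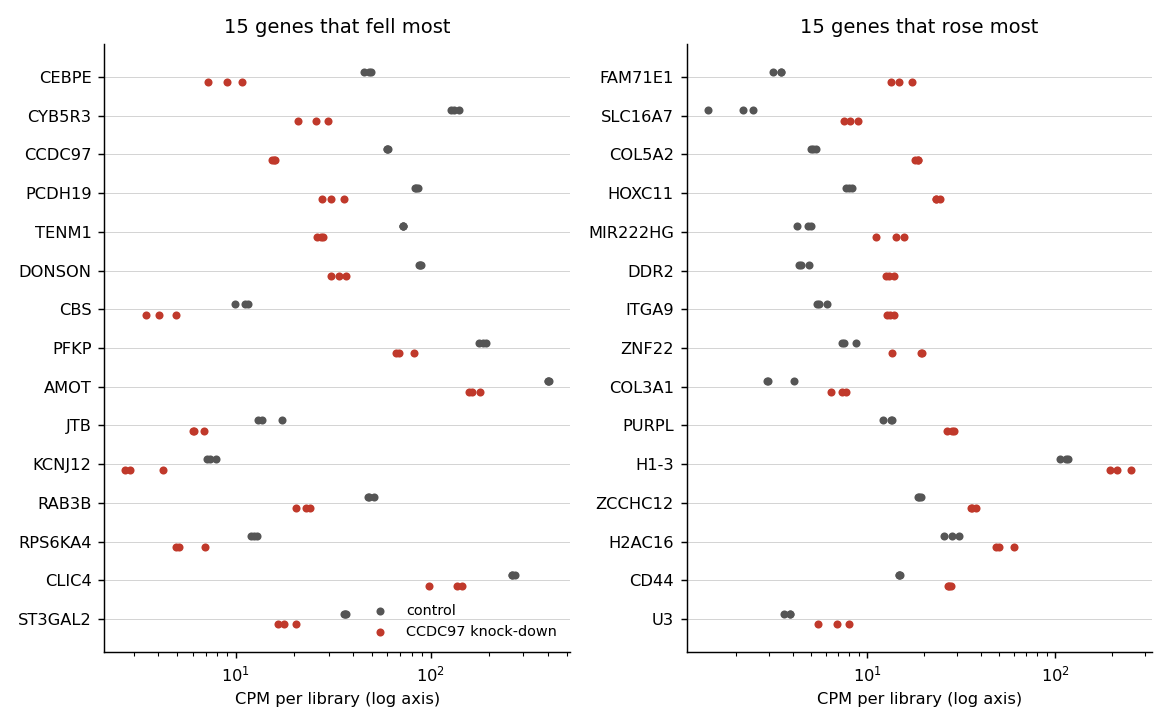
CPM of each library (log axis) for the 15 genes that fell most and the 15 that rose most among called genes at a mean of 5 CPM or more, with control libraries in grey and CCDC97 knock-down libraries in red. No gene shown has overlapping groups, as no called gene has, and CEBPE and CYB5R3 are farthest apart on the left.

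Among the abundant messages, the 6 with the highest levels that fell were DDX17, SON, SET, ACLY, ADAMTS1 and APP. SET, a histone chaperone and inhibitor of protein phosphatase 2A, was at 1028, 1049.8 and 1004 CPM in the controls and 622, 667 and 684 CPM in the knock-down (log2 fold change -0.64 ± 0.06, edgeR adjusted p = 2.3e-04). DDX17, an RNA helicase, was at 1191, 1215 and 1155 CPM in the controls and 773, 780.0 and 829.8 CPM in the knock-down (log2 fold change -0.58 ± 0.06, edgeR adjusted p = 3.7e-04). The remaining 4 changed less, with log2 fold changes from -0.31 for ADAMTS1 to -0.23 for APP, and passed in 2 to 5 of the 9 fits.

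The 3' UTRs of the lower genes often held the 7 bases GAGCAGA. All 16384 sequences of this length were counted in the longest annotated 3' UTR of 13682 tested protein-coding genes, read on the transcript's strand only. GAGCAGA stood first among the 365 lower genes: 180 of them (49.3%) held it, where 24.1% of genes with 3' UTRs of the same length did. Off chromosome 21, which is described next, it was held by 53.8% of 305 lower genes, against 24.7% at the same length. Of the 326 higher genes 12.9% held it, against 15.8% at the same length. The sequence placed next, AGAGCAG, overlaps it by 6 bases and was held by 43.3% against 28.6%. The sequence was picked from these same fold changes, so its counts are a description and no test was made. The share was 27.7% among the many more lower genes called with 2 groups alone and without knock-down replicate 1. Of the 15 genes with the largest falls, 11 held it, which are CCDC97, CYB5R3, PCDH19, DONSON, PFKP, JTB, KCNJ12, RAB3B, RPS6KA4, CLIC4 and ST3GAL2, while CEBPE, TENM1, AMOT and CBS did not. Stretches of 30 bases around some of these copies are shown so that the flanks can be compared, with the 7 bases in capitals, 5' to 3', from GENCODE release 29 transcripts on GRCh38.
CCDC97, coding part, chr19:41319579-41319608, plus strand: gagtacttcagtgatGAGCAGAtgcggttc
CCDC97, 3' UTR, chr19:41324761-41324790, plus strand: tgccccatttttaaaGAGCAGAgggcctgg
CYB5R3, 3' UTR, chr22:42618836-42618865, minus strand: ttcagagtcatttatGAGCAGAaaaaaaaa
DONSON, 3' UTR, chr21:33578056-33578085, minus strand: acctaattgtatattGAGCAGAaactgaat
PFKP, 3' UTR, chr10:3136752-3136781, plus strand: ttcagatgtgcatatGAGCAGAattaatta
JTB, 3' UTR, chr1:153974523-153974552, minus strand: tttcagatcattaatGAGCAGAataaaaag
ST3GAL2, 3' UTR, chr16:70379974-70380003, minus strand: atgccaaacagtattGAGCAGAataattta
CLIC4, 3' UTR, chr1:24841000-24841029, plus strand: ctactccttcctgtaGAGCAGAaattgtat
RAB3B, 3' UTR, chr1:51908337-51908366, minus strand: gtaccatagcagtatGAGCAGAattcctca
The copies shown outside CCDC97 are ones followed by A. RAB3B held 4 copies in its 3' UTR, the other 3 of them followed by G or T, and KCNJ12 held 2.

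The share of lower genes followed the number of copies. Of 11094 genes without the sequence 185 were lower (1.67%), of 2101 with 1 copy 127 were lower (6.05%), and of 487 with 2 or more 53 were lower (10.9%). The median log2 fold changes were 0.03, -0.04 and -0.08, and each of the 3 knock-down libraries gave the same order. The shift of the whole group was thus small: genes with at least 1 copy lay below those with none by 0.060, 0.107 and 0.074 (log2) in knock-down replicates 1, 2 and 3. In the TTC33 knock-down, set against the same controls, the medians were 0.02, 0.02 and -0.003, and in the direct contrast of both knock-downs they were 0.01, -0.06 and -0.07. Off chromosome 21, 164 of 2560 genes with a copy were lower, against 141 of 10992 without. Among genes with 1 copy, 64 of 616 were lower where A followed it, against 11 of 296, 36 of 785 and 16 of 405 where C, G or T did. With a copy in the coding part but none in the 3' UTR, 53 of 2255 genes were lower (2.35%). This compares with 126 of 8569 (1.47%) without the sequence anywhere in the transcript, and with 2.67% of all 13682. In all 5 classes of 3' UTR length the lower share was larger with the sequence than without it, from 3.77% against 0.91% in the shortest class to 7.65% against 2.30% in the longest. The sequence of the microRNA expressed in these cells is not given in the sources used here, so its pairing with these sites was not tested. Of 2370 mature human microRNAs in RefSeq (GRCh38.p14), 1 carries the complementary seed, printed here with bases 2 to 8 in capitals.
hsa-miR-6828-3p: aUCUGCUCucuuguucccag

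**Figure D3:**
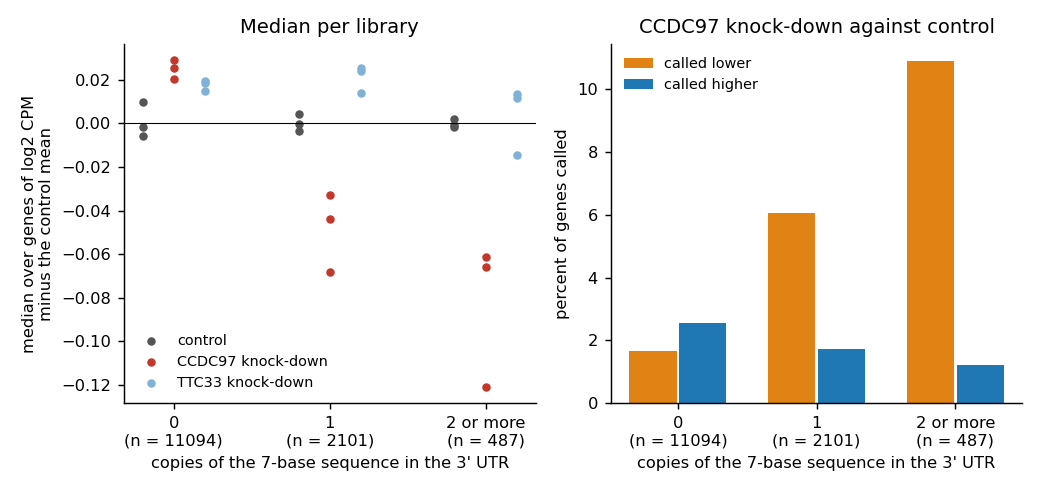
Genes grouped by copies of the 7-base sequence in the 3' UTR (horizontal axis). The left panel gives the median over genes of log2 CPM minus the control mean, 1 point per library, and the right panel the percent of genes called lower or higher in the CCDC97 knock-down: the share called lower is 1.67%, 6.05% and 10.9%, while the share called higher does not grow.

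Of 221 genes tested on chromosome 21, 74 were called lower (33.5%), against 2.11% of genes on all other chromosomes, and 1 was called higher. Their median log2 fold change was -0.45, and the medians of knock-down replicates 1, 2 and 3 were -0.40, -0.47 and -0.45 from the control mean, against -0.003, -0.001 and 0.001 in the control libraries. All 3 knock-down libraries thus lay below all controls, and the next lowest chromosome, 18, had a median of -0.13. Single genes followed: 194 of the 221 had a negative log2 fold change, and 138 had all 3 knock-down libraries below all 3 controls, as 15% of all genes tested did. Along the chromosome, windows of 5 Mb between 25 and 50 Mb had medians from -0.25 to -0.61. Of 436 such windows in the genome with at least 15 tested genes, 7 had a median below -0.2 and 5 of these were on chromosome 21. In the TTC33 knock-down, against the same controls, the median was -0.20, and the direct contrast gave -0.25. Of its genes with an annotated 3' UTR, 16 of 28 with GAGCAGA and 44 of 102 without it were lower. Of the 365 lower protein-coding genes, 224 held the sequence or lay on chromosome 21, and 141 did neither. The chromosome was looked at after the data were seen. DNA content was not measured here.

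**Figure D4:**
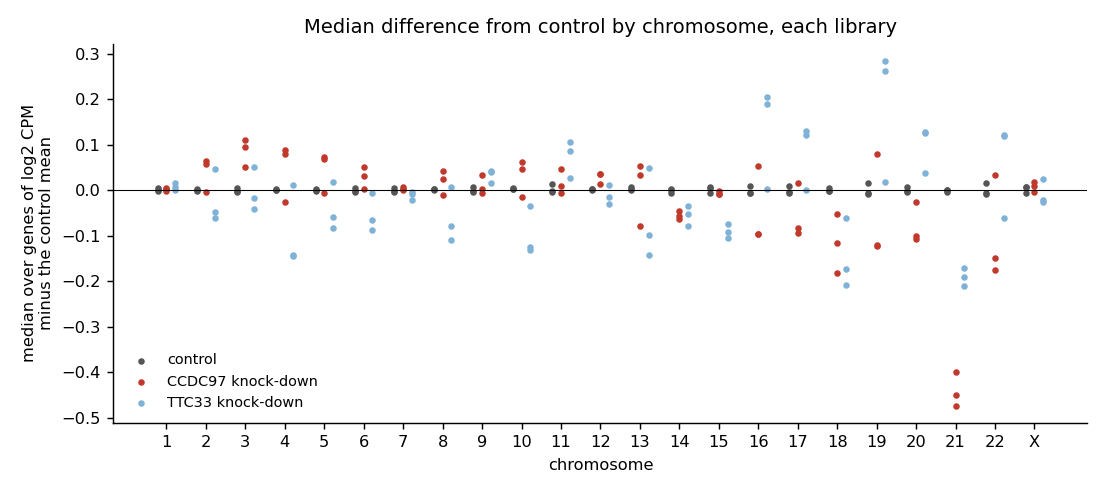
Median over the tested genes of each chromosome of log2 CPM minus the control mean (vertical axis), 1 point per library and groups side by side. The 3 CCDC97 knock-down libraries are at -0.40, -0.47 and -0.45 on chromosome 21, and the spread between replicates of the knock-down on chromosomes 16, 19 and 22 is wider than between controls.

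Many of the named genes that fell lie there. Besides DONSON, CBS, SON, APP and the protease gene ADAMTS1 they include 2 collagen genes. COL18A1, the source of endostatin, was at 60.5, 60.2 and 60.8 CPM in the controls and 40.01, 26.7 and 27.9 CPM in the knock-down (log2 fold change -0.94 ± 0.15, edgeR adjusted p = 0.0069). COL6A2 was at 25.9, 24.1 and 26.4 CPM in the controls and 19.3, 10.9 and 14.1 CPM in the knock-down (log2 fold change -0.79 ± 0.19, edgeR adjusted p = 0.038, called in 3 of 9 fits). Both were lower in replicates 2 and 3 than in replicate 1. LSS, the lanosterol synthase of the cholesterol pathway, was at 119.8, 123 and 124 CPM in the controls and 86.8, 71.8 and 69.8 CPM in the knock-down (log2 fold change -0.68 ± 0.10, edgeR adjusted p = 0.0052). PFKL, the liver phosphofructokinase, was at 161, 158 and 169 CPM in the controls and 129, 92.8 and 90.97 CPM in the knock-down (log2 fold change -0.64 ± 0.15, edgeR adjusted p = 0.034, called in 4 of 9 fits). CHAF1B, a subunit of chromatin assembly factor 1, was at 121, 127 and 129 CPM in the controls and 91.8, 93.4 and 93.00 CPM in the knock-down (log2 fold change -0.44 ± 0.06, edgeR adjusted p = 0.0042), and the respiratory chain subunit gene NDUFV3 had a log2 fold change of -0.44, called in 7 of 9 fits. U2AF1, the small subunit of the factor that reads the 3' splice site, was at 6.49, 6.69 and 6.405 CPM in the controls and 3.79, 3.77 and 4.02 CPM in the knock-down (log2 fold change -0.76 ± 0.10, edgeR adjusted p = 0.0024). It has a near-identical copy on the chromosome, as CBS has, so its level is uncertain. The gene called higher, the lncRNA ENSG00000277693, lies near the centromere at chromosome 21:10328411-10342737 and was at 0.636, 0.463 and 0.571 CPM in the controls and 2.97, 2.58 and 2.76 CPM in the knock-down.

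Smaller regional shifts were seen elsewhere, in stretches picked after the data were seen, so their counts are a description and no test was made. On chromosome 14, 16 of 98 genes between 20 and 25 Mb were lower, against 2.49% of all genes, and none was higher, with a median of -0.25. CEBPE lies in this window, as do IRF9, a transcription factor of interferon signalling (log2 fold change -0.84 ± 0.21, edgeR adjusted p = 0.047, called in 2 of 9 fits), and LMLN2, which was at 4.73, 4.57 and 4.69 CPM in the controls and 0.9905, 0.991 and 1.21 CPM in the knock-down (log2 fold change -2.14 ± 0.15, edgeR adjusted p = 2.3e-05) and is named after its values were seen. On chromosome 3 before 90 Mb, 53 of 477 genes were higher (11.1%, against 2.07% of all genes) and 3 lower (0.63%). The medians there were 0.17, 0.15 and 0.16 in the 3 knock-down libraries, while after 90 Mb 16 of 495 genes were higher (3.23%). ITGA9, an integrin subunit gene, and TGFBR2, the type II receptor of TGF-beta, lie in the first stretch. ITGA9 was at 5.500, 6.095 and 5.42 CPM in the controls and 13.2, 12.7 and 13.8 CPM in the knock-down (log2 fold change 1.22 ± 0.09, edgeR adjusted p = 4.7e-05), and TGFBR2 had a log2 fold change of 0.43 and passed in 4 of 9 fits.

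The strongest rises were in genes nearly silent in the controls. ADCY10, the soluble adenylyl cyclase that responds to bicarbonate, was at 0.276, 0.1905 and 0.349 CPM in the controls and 7.39, 8.85 and 8.03 CPM in the knock-down (log2 fold change 4.89 ± 0.21, edgeR adjusted p = 1.7e-06). The TTC33 knock-down left it at 0.321, 0.5201 and 0.536 CPM, and the direct contrast passed (edgeR adjusted p = 1.2e-06). PABPC4L, a relative of the cytoplasmic poly(A)-binding proteins, was at 0.221, 0.327 and 0.3805 CPM in the controls and 4.07, 3.87 and 3.82 CPM in the knock-down (log2 fold change 3.66 ± 0.25, edgeR adjusted p = 1.9e-05). HDX, a homeobox gene, was at 0.442, 0.408 and 0.412 CPM in the controls and 3.29, 4.195 and 3.82 CPM in the knock-down (log2 fold change 3.15 ± 0.20, edgeR adjusted p = 1.5e-05). Each of these was near or below 0.5 CPM in every control and above 3 CPM in every knock-down library. The antisense transcript NECTIN3-AS1 was at 0.138, 0.0816 and 0.1902 CPM in the controls and 2.44, 2.58 and 2.47 CPM in the knock-down (log2 fold change 4.18 ± 0.24, edgeR adjusted p = 5.9e-06). Its partner NECTIN3, a cell adhesion molecule of the nectin family, was at 1.13, 1.31 and 0.666 CPM in the controls and 4.599, 5.55 and 4.74 CPM in the knock-down (log2 fold change 2.24 ± 0.25, edgeR adjusted p = 6.8e-04). This pair was also high with TTC33 depleted, at 3.79, 3.22 and 3.21 CPM for NECTIN3-AS1 and 11.6, 7.94 and 7.46 CPM for NECTIN3. CGA, the shared alpha subunit of glycoprotein hormones, rose from 0.663, 0.735 and 0.3805 to 4.21, 4.86 and 4.500 CPM (log2 fold change 2.91 ± 0.21, edgeR adjusted p = 3.3e-05) and is named after its values were seen.

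At 5 CPM or more the largest rises included FAM71E1, at 3.45, 3.13 and 3.49 CPM in the controls and 17.3, 14.7 and 13.3 CPM in the knock-down (log2 fold change 2.17 ± 0.17, edgeR adjusted p = 4.9e-05), which shares 324 exon bases with EMC10 on the other strand. Other named genes share more than 300 exon bases with a gene on the other strand, among them ITGA9, COL18A1, ST3GAL2, ZNF22, DUSP6, THBS1, LSS, FADS1 and FADS2, and whether the counting used strand is not given in the sources used here. SLC16A7, a monocarboxylate transporter of high affinity for pyruvate, was at 2.18, 1.42 and 2.47 CPM in the controls and 7.499, 8.13 and 8.95 CPM in the knock-down (log2 fold change 2.02 ± 0.33, edgeR adjusted p = 0.0071). HOXC11, a posterior homeobox gene, was at 7.71, 7.95 and 8.31 CPM in the controls and 24.3, 23.2 and 23.1 CPM in the knock-down (log2 fold change 1.56 ± 0.08, edgeR adjusted p = 5.2e-06). For all 3 the groups stayed apart, as for every called gene. CD44, the hyaluronan receptor, was at 14.7, 14.9 and 14.8 CPM in the controls and 27.9, 27.3 and 26.8 CPM in the knock-down (log2 fold change 0.89 ± 0.08, edgeR adjusted p = 2.0e-04). ZCCHC12 was at 18.6, 19.3 and 18.8 CPM in the controls and 35.4, 35.9 and 37.8 CPM in the knock-down (log2 fold change 0.94 ± 0.08, edgeR adjusted p = 1.4e-04). In both the replicates were close together and the groups far apart. ZNF22 and the small nucleolar RNA gene labelled U3 had log2 fold changes of 1.15 and 0.84, the latter in 4 of 9 fits.

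Collagen and matrix genes moved in both directions. Of 70 tested 6 were higher (8.57%) and 5 lower (7.14%), against 2.07% and 2.49% of all genes, with a median of -0.03, beside 0.00 over all genes tested. Without knock-down replicate 1 the counts were 6 and 15, and without replicate 2 or 3 of the knock-down, or any one control, 5 or 6 were higher and 1 lower. COL5A2, a chain of type V collagen, was at 5.17, 5.36 and 5.04 CPM in the controls and 17.9, 18.6 and 18.5 CPM in the knock-down (log2 fold change 1.82 ± 0.10, edgeR adjusted p = 5.2e-06). COL3A1, the chain of type III collagen, was at 2.96, 2.91 and 4.06 CPM in the controls and 7.29, 6.44 and 7.74 CPM in the knock-down (log2 fold change 1.11 ± 0.16, edgeR adjusted p = 0.0033). DDR2, a receptor tyrosine kinase activated by fibrillar collagen, was at 4.42, 4.35 and 4.88 CPM in the controls and 13.8, 12.98 and 12.6 CPM in the knock-down (log2 fold change 1.53 ± 0.14, edgeR adjusted p = 1.9e-04), and the matrix glycoprotein gene THBS1 had a log2 fold change of 1.02. COL3A1 and COL5A2 are neighbours on chromosome 2, and other fibrillar collagen genes did not pass, COL1A1 among them with a log2 fold change of -0.23. Of the 26 collagen chain genes in the list 17 had a negative log2 fold change, and their median was -0.13. Beside COL18A1 and COL6A2 the lower members were LAMA3 (-0.35, called in 4 of 9 fits), P4HA2 (-0.35, called in 2 of 9 fits) and PLOD1 (-0.49, called in 3 of 9 fits). In the TTC33 knock-down the log2 fold changes of COL5A2, COL3A1 and DDR2 against the same controls were 0.46, 0.01 and -0.09, and the direct contrast passed for each (edgeR adjusted p = 1.2e-05, 0.0014 and 6.5e-05).

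Adhesion genes outside the protocadherin clusters gave 7 higher (14.9%) and 3 lower (6.38%) of 47, against 2.07% and 2.49% of all genes. The balance depended on knock-down replicate 1, without which 9 were higher and 11 lower, and 2 or 3 were higher without any one of the other 5 libraries of the comparison. With PCDH19 and TENM1 the latrophilin gene ADGRL1 was lower (log2 fold change -0.60 ± 0.13, edgeR adjusted p = 0.028, called in 4 of 9 fits). CNTN1, a contactin, was at 22.9, 20.9 and 22.5 CPM in the controls and 34.3, 40.4 and 36.97 CPM in the knock-down (log2 fold change 0.75 ± 0.11, edgeR adjusted p = 0.0052). The atypical cadherin FAT4 was at 57.8, 59.8 and 58.02 CPM in the controls and 75.7, 75.98 and 78.5 CPM in the knock-down (log2 fold change 0.39 ± 0.06, edgeR adjusted p = 0.0067, called in 7 of 9 fits). The netrin receptor UNC5C had a log2 fold change of 0.33, called in 4 of 9 fits. Of 26 clustered protocadherin genes 1 (3.85%), PCDHB2, passed (log2 fold change 1.28 ± 0.17, edgeR adjusted p = 0.0023). FLNC, a filamin of muscle, was higher (log2 fold change 1.17 ± 0.18, edgeR adjusted p = 0.0055). CCN2, a YAP target encoding a matricellular protein, was at 1.96, 2.01 and 2.41 CPM in the controls and 3.89, 4.096 and 5.13 CPM in the knock-down (log2 fold change 1.03 ± 0.18, edgeR adjusted p = 0.011, called in 7 of 9 fits).

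HOX genes were higher where they passed. Of 57 HOX genes, antisense transcripts and partner genes 5 were higher (8.77%, against 2.07% of all genes) and none lower, with a median of 0.15 and with 0.26, 0.05 and 0.13 in the knock-down libraries. Beside HOXC11 these were HOXA9 (log2 fold change 0.36 ± 0.07, edgeR adjusted p = 0.014, called in 5 of 9 fits), HOXA10 (log2 fold change 0.43 ± 0.07, edgeR adjusted p = 0.0096, called in 5 of 9 fits), HOXC10 (log2 fold change 0.46 ± 0.10, edgeR adjusted p = 0.028, called in 4 of 9 fits) and HOXC6 (0.45, called in 2 of 9 fits). All 5 belong to the HOXA and HOXC clusters, and none of 9 HOXB and 9 HOXD genes passed, a difference that was not tested. The cluster medians were close, at 0.29 for HOXA, 0.25 for HOXB, 0.25 for HOXC and 0.21 for HOXD. With the GC and length correction 7 of 11 HOXA, 6 of 9 HOXB, 5 of 8 HOXC and 2 of 9 HOXD genes were higher. In the TTC33 knock-down the list median was 0.16 against the same controls.

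Cytosolic ribosomal protein genes were the list with the most calls by number, while messages encoded in the mitochondrial genome had a larger share (61.5%). Of 78 tested, 24 were higher (30.8%, against 2.07% of all genes) and none lower. The median was 0.29, with 0.25, 0.45 and 0.20 in knock-down replicates 1, 2 and 3. In 63 of the 78 all 3 knock-down libraries lay above all controls, as in 14.9% of all genes tested. RPSA was at 742, 767 and 779 CPM in the controls and 1045, 1242 and 1084 CPM in the knock-down (log2 fold change 0.56 ± 0.07, edgeR adjusted p = 0.0021) and RPL15 at 1108, 1115 and 1157 CPM in the controls and 1446, 1641 and 1458 CPM in the knock-down (log2 fold change 0.43 ± 0.07, edgeR adjusted p = 0.0054). Also called were RPL32 (0.50, called in 8 of 9 fits) and RPS24 (0.42, called in 5 of 9 fits). The 5 members on chromosome 3 before 90 Mb, RPSA, RPL15 and RPL32 among them, were all called, with a median of 0.44. Off that stretch 19 of 73 were called, with a median of 0.29. The count of higher members was 41 without knock-down replicate 1 and 56 with the GC and length correction. It was 5 with the replicate number added to the fit as a block. Ribosomal protein genes, like HNRNPA1 and the histone genes below, have near-identical copies elsewhere in the genome, and how shared reads were treated can move their counts.

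Of 13 messages encoded in the mitochondrial genome 8 were higher (61.5%, against 2.07% of all genes) and none lower, with a median of 0.36 and with 0.40, 0.34 and 0.37 in the 3 knock-down libraries. MT-ND1 was at 1648, 1700.0 and 1846 CPM in the controls and 2759, 2492 and 2760.1 CPM in the knock-down (log2 fold change 0.63 ± 0.11, edgeR adjusted p = 0.012, called in 6 of 9 fits). MT-CO1, the most abundant of the called genes, was at 10002, 10349.8 and 11345 CPM in the controls and 13454, 13368 and 13642 CPM in the knock-down (log2 fold change 0.35 ± 0.08, edgeR adjusted p = 0.032, called in 4 of 9 fits). Log2 fold changes of MT-ND2, MT-CO2, MT-CO3, MT-CYB and MT-ATP6 were 0.53, 0.36, 0.36, 0.37 and 0.38, each passing in 4 of 9 fits, and MT-ND4L was the other one called. The ribosomal RNA MT-RNR1 of the same genome was at 414, 13.4 and 796 CPM in the controls and 709, 83.7 and 6736 CPM in the knock-down, a range that overlaps between groups, and its part in the result was not tested. In the TTC33 knock-down the list had the same median of 0.36 against the same controls, and in the direct contrast it was 0.02.

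Respiratory chain genes of the nucleus shifted less. Of 76 tested 8 were higher (10.5%, against 2.07% of all genes) and 1, NDUFV3, was lower (1.32%, against 2.49%), and the median was 0.20. NDUFS4, a complex I subunit, was at 27.2, 31.4 and 30.5 CPM in the controls and 37.6, 50.1 and 40.99 CPM in the knock-down (log2 fold change 0.53 ± 0.11, edgeR adjusted p = 0.022, called in 4 of 9 fits). Also higher were COX7C (0.41, called in 3 of 9 fits), NDUFA6 (0.37, called in 4 of 9 fits) and ATP5F1C (0.32, called in 2 of 9 fits). Mitochondrial ribosomal protein genes gave 4 higher (5.26%) and 1 lower (1.32%) of 76. MRPL1 was higher (log2 fold change 0.49 ± 0.10, edgeR adjusted p = 0.024, called in 4 of 9 fits) and MRPS27 was lower (log2 fold change -0.47 ± 0.06, edgeR adjusted p = 0.0019).

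Of 39 replication-dependent histone genes 8 were higher (20.5%, against 2.07% of all genes) and none lower. Of all 39, 3 had a negative log2 fold change, and the median was 0.33, with 0.37, 0.44 and 0.20 in the knock-down libraries. The linker histone gene H1-3 was at 106, 116 and 114 CPM in the controls and 196, 253 and 212 CPM in the knock-down (log2 fold change 0.98 ± 0.09, edgeR adjusted p = 2.4e-04), where the TTC33 knock-down gave -0.67 against the same controls. H2AC16 was at 28.1, 25.7 and 30.9 CPM in the controls and 59.96, 48.5 and 49.9 CPM in the knock-down (log2 fold change 0.91 ± 0.16, edgeR adjusted p = 0.012, called in 7 of 9 fits), and H2BC8 (0.65) and H2BC4 (0.46, called in 6 of 9 fits) were higher as well. Of 54 genes of DNA replication none was higher and 4 were lower (7.41%, against 2.49% of all genes). These were DONSON, CHAF1B, CHAF1A (log2 fold change -0.44 ± 0.09, edgeR adjusted p = 0.026, called in 4 of 9 fits) and E2F2 (log2 fold change -0.41 ± 0.10, edgeR adjusted p = 0.041, called in 3 of 9 fits). DONSON and CHAF1B are the 2 tested members of this list on chromosome 21. The list median was 0.01, and with the GC and length correction 4 members were higher and 10 lower. Of 40 genes of mitosis 2 were higher (5.00%, against 2.07% of all genes), KIF20A (0.30, called in 2 of 9 fits) and CENPF (0.31, called in 3 of 9 fits).

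**Figure D5:**
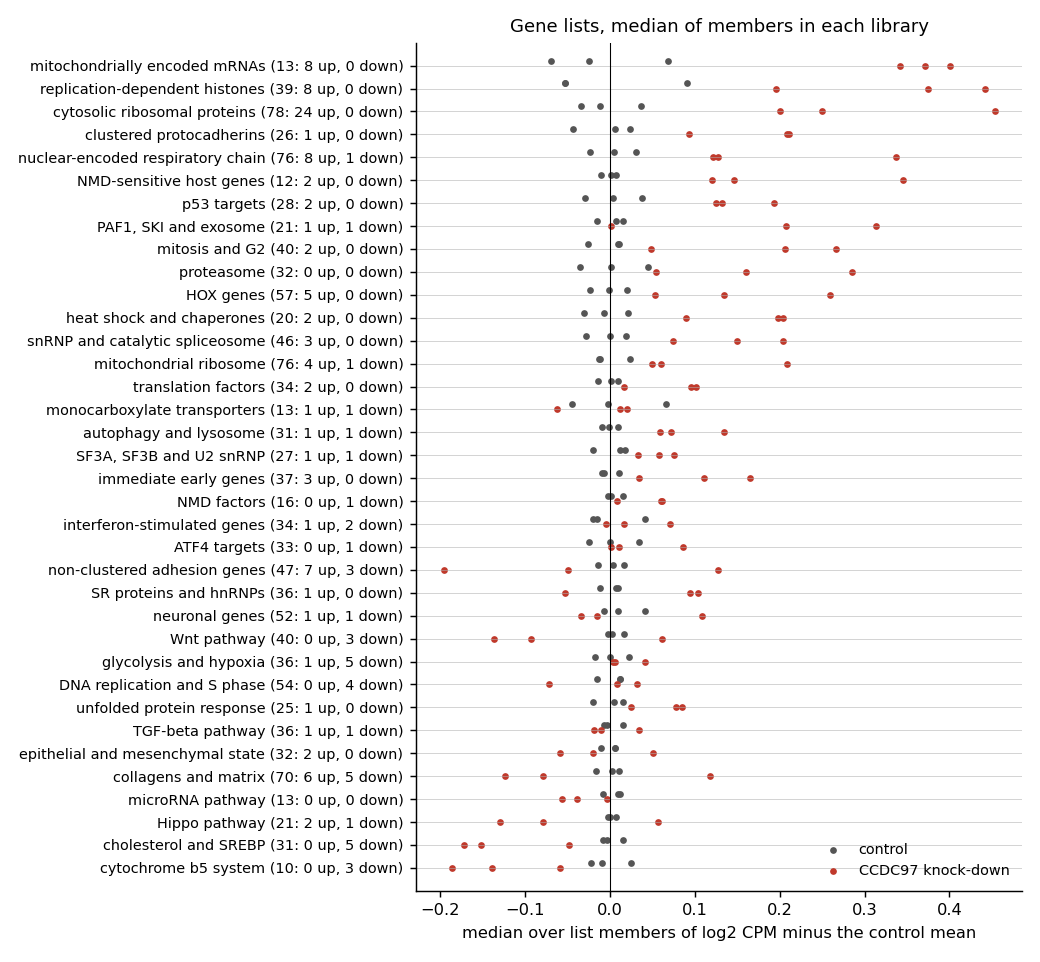
Median over the members of each gene list of log2 CPM minus the control mean (horizontal axis), 1 point per library, controls in grey and CCDC97 knock-down in red, with the number of tested members and of those called up or down beside each name. The 3 lists at the top have all knock-down libraries above 0.19, and several lists near 0 have knock-down libraries on both sides.

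In the 3 lists of splicing machinery genes, the share called higher was near or above that of all genes. The only member called lower was U2AF1. In the list of SF3A, SF3B and U2 snRNP genes 1 of 27 was higher, DNAJC8 (log2 fold change 0.33 ± 0.08, edgeR adjusted p = 0.045, called in 2 of 9 fits), and 1 was lower, U2AF1 (3.70% each way, against 2.07% higher and 2.49% lower of all genes), and none of the 10 SF3A and SF3B subunit genes passed. Of 46 snRNP and catalytic spliceosome genes 3 were higher (6.52%, and 12 without knock-down replicate 1), which are ZMAT2 (0.43, called in 4 of 9 fits), SYF2 (0.37, called in 3 of 9 fits) and IK (0.32, called in 3 of 9 fits). Of 36 genes of SR proteins and hnRNPs 1 (2.78%), HNRNPA1, was higher (log2 fold change 0.35 ± 0.08, edgeR adjusted p = 0.027, called in 4 of 9 fits). In the PAF1, SKI and exosome list 1 of 21 was higher and 1 lower (4.76% each way), the exosome genes EXOSC7 (log2 fold change 0.61 ± 0.08, edgeR adjusted p = 0.0033) and EXOSC6 (log2 fold change -0.33 ± 0.08, edgeR adjusted p = 0.035, called in 4 of 9 fits). Of 16 nonsense-mediated decay factor genes 1 (6.25%), UPF3A, was lower (log2 fold change -0.40 ± 0.08, edgeR adjusted p = 0.023, called in 4 of 9 fits). No gene of 13 in the microRNA pathway was called.

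Lipid and sugar metabolism gave small sets of lower genes. In the cholesterol and SREBP list 5 of 31 were lower (16.1%, against 2.49% of all genes) and none higher, with a median of -0.11: LSS, ACLY, the fatty acid desaturase genes FADS1 (-0.40, called in 4 of 9 fits) and FADS2 (-0.39, called in 2 of 9 fits), and INSIG1 (-0.35, called in 3 of 9 fits). With the GC and length correction 4 of the 31 were higher and 8 lower. Of 36 glycolysis and hypoxia genes 5 were lower (13.9%) and 1 higher (2.78%), with a median of 0.02. All knock-down libraries lay above all controls in 12 of the 36 and below them in 6, as they did for 14.9% and 15% of all genes tested. With the correction 8 were higher and 6 lower. PFKP and PFKL were lower, as were ALDOC (-0.47, called in 1 of 9 fits) and the prolyl hydroxylase genes EGLN3 (-0.34, called in 2 of 9 fits) and P4HA2, and the glucose transporter gene SLC2A3 was higher (log2 fold change 0.60 ± 0.12, edgeR adjusted p = 0.021, called in 5 of 9 fits). Of 10 genes of the cytochrome b5 system CYB5D2 (-0.51, called in 4 of 9 fits) and CYB5RL (-0.45, called in 4 of 9 fits) were lower beside CYB5R3. Among these lower genes LSS, FADS1, FADS2, PFKP, ALDOC, EGLN3, P4HA2, CYB5R3 and CYB5RL held GAGCAGA in the 3' UTR. LSS and PFKL lie on chromosome 21, and ACLY, INSIG1 and CYB5D2 had neither feature.

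Stress and signalling lists held up to 3 calls each way. The p53 target list gave 2 higher of 28 (7.14%, against 2.07% of all genes). CDKN1A, the inhibitor p21, was at 32.7, 31.8 and 36.1 CPM in the controls and 54.5, 48.6 and 44.03 CPM in the knock-down (log2 fold change 0.55 ± 0.09, edgeR adjusted p = 0.0081, called in 7 of 9 fits), and the death receptor gene EDA2R at 11.9, 12.8 and 12.6 CPM in the controls and 17.5, 20.2 and 19.8 CPM in the knock-down (log2 fold change 0.62 ± 0.10, edgeR adjusted p = 0.0058). Of 37 immediate early genes 3 were higher (8.11%): CCN2, the ERK phosphatase gene DUSP6 (log2 fold change 0.71 ± 0.10, edgeR adjusted p = 0.004) and the kinase gene SGK1 (0.61, called in 4 of 9 fits), while none of 8 AP-1 genes passed. Of 40 Wnt pathway genes 3 were lower (7.50%, against 2.49% of all genes) and none higher, and without knock-down replicate 1 the counts were 5 and 3. SFRP1, a secreted Wnt antagonist, was at 34.1, 30.9 and 33.2 CPM in the controls and 20.7, 18.1 and 18.7 CPM in the knock-down (log2 fold change -0.77 ± 0.10, edgeR adjusted p = 0.0019), and the receptor gene FZD6 (-0.70, called in 6 of 9 fits) and the antagonist gene NKD1 (-0.36, called in 3 of 9 fits) were the others. Of 34 interferon-stimulated genes 1 (2.94%), SAMD9, was higher (0.74, called in 4 of 9 fits) and 2 (5.88%), IRF9 and STAT2 (-0.50), were lower. The chaperone genes HSP90AA1 (0.36) and DNAJA1 (0.37) were higher among 20 (10.0%), each passing in 2 of 9 fits. Of 31 autophagy and lysosome genes the kinase gene ULK2 was lower (log2 fold change -0.77 ± 0.08, edgeR adjusted p = 5.6e-04) and ATG14 higher (0.43, called in 2 of 9 fits), which is 3.23% each way. Of 52 neuronal genes 1 was higher, UNC13A (0.70, called in 5 of 9 fits), and 1 was lower, GNAO1 (-0.58, called in 2 of 9 fits). That is 1.92% each way, below the 2.07% higher and 2.49% lower of all genes. In other lists the called members were SNHG6 (0.41, called in 5 of 9 fits) and GADD45B (0.52, called in 2 of 9 fits) of 12 genes with transcripts known as targets of nonsense-mediated decay (16.7%), and CEBPE of 7 C/EBP factor genes (14.3%). Also called were GDF11 (-0.36, called in 4 of 9 fits) and TGFBR2 of 36 TGF-beta pathway genes (2.78% each way), CBS of 33 ATF4 targets (3.03%), and the translocon gene SEC61B (0.42, called in 7 of 9 fits) of 25 in the unfolded protein response (4%). Shares of this size are near those of all genes. The last ones were AMOT, CCN2 and the kinase gene STK3 (0.36, called in 2 of 9 fits) of 21 in the Hippo pathway (9.52% higher and 4.76% lower), SLC16A7 and SLC16A4 (-0.98, called in 2 of 9 fits) of 13 monocarboxylate transporter genes (7.69% each way), and FLNC and the smooth muscle actin gene ACTA2 (0.44, called in 2 of 9 fits) of 32 genes of epithelial and mesenchymal state (6.25%). None of 32 proteasome genes passed, while 12 had all knock-down libraries above all controls, as 14.9% of all genes tested did, and 10 were higher without knock-down replicate 1. Among 34 translation factor genes EIF4B (0.35, called in 6 of 9 fits) and EEF1B2 (0.31, called in 2 of 9 fits) were higher (5.88%).

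Of 3035 lncRNA genes 77 were lower (2.54%) and 26 higher (0.86%), with a median of -0.12. Of 13722 protein-coding genes 366 were lower (2.67%) and 331 higher (2.41%), with a median of 0.01, so that the lower shares of both classes were near the 2.49% of all genes. LINC02506 was at 1.08, 1.09 and 0.824 CPM in the controls and 7.04, 6.94 and 7.36 CPM in the knock-down (log2 fold change 2.82 ± 0.14, edgeR adjusted p = 4.6e-06), and LINC02163 and LINC01036 had log2 fold changes of 2.61 and 1.71. MIR222HG, from which miR-221 and miR-222 are processed, was at 4.84, 5.03 and 4.22 CPM in the controls and 11.1, 15.6 and 14.3 CPM in the knock-down (log2 fold change 1.54 ± 0.21, edgeR adjusted p = 0.0029). PURPL, a p53-regulated lncRNA, was at 13.4, 13.6 and 12.05 CPM in the controls and 26.7, 28.3 and 28.8 CPM in the knock-down (log2 fold change 1.10 ± 0.10, edgeR adjusted p = 1.7e-04). The lncRNA genes with the largest falls were LINC01694 (-1.36) and BTG3-AS1 (-0.98), both on chromosome 21, and BCAN-AS1 (-0.94). Of 45 small nuclear RNA genes 9 were higher (20.0%, against 2.07% of all genes) and none lower. Their median was 0.58, with 0.61, 0.63 and 0.63 in the 3 knock-down libraries. The called ones are mostly variant genes of U1, which are near-identical copies, so the level of any single one is uncertain.

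Most of the called genes also differed between the 2 knock-downs. The direct contrast compares the knock-downs with each other, while the controls still enter the filter, the scaling and the estimate of the spread. It called 3943 of 18299 genes (21.5%) and 493 of the 835 (59.0%). In 279 of these the gene was lower with CCDC97 depleted than in both other groups, in 205 it was higher than in both, and in 9 it lay nearer to control than with TTC33 depleted. The 835 were called from the same 3 CCDC97 knock-down libraries, so the raised share and these directions are partly fixed by that choice. CYB5R3 was at 125, 170.4 and 211 CPM in the TTC33 knock-down, CEBPE at 25.1, 38.7 and 38.3 and PFKP at 142, 185 and 187, and the direct contrast passed for each (edgeR adjusted p = 8.9e-06, 9.0e-05 and 8.2e-05). For SLC16A7 at 10.3, 5.201 and 3.75 CPM and ULK2 at 11.3, 10.1 and 10.9 CPM it did not pass (0.43 and 0.62). The count of the direct contrast was 6192 without replicate 1 of the CCDC97 knock-down and 7767 without replicate 1 of the TTC33 knock-down. It was 1528 to 1830 without any one of the other 4 knock-down libraries, and 2738 to 2835 without any one control.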

How the data were processed

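Total RNA of 9 libraries was sequenced, 3 per group. The authors used Trimmomatic 0.39, HISAT2 and HTSeq 2.0.1 with GRCh38, as listed in the submitters' processing notes; strand setting, annotation release and treatment of shared reads are not stated there. The deposited counts are raw whole-number counts per gene, in pairs of files whose short labels are not explained there; the larger of each pair was used, and their sum was an alternative. Summary rows that name no gene (33.4% to 57.9% of each file) were dropped, and 20055 genes have no symbol. Annotation, GC content (18042 genes, 98.6% of those tested) and transcript sequence came from GENCODE release 29.

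Counts were filtered with filterByExpr, scaled by TMM and tested with edgeR 4.0.16 (R 4.3.3, quasi-likelihood) over all 9 libraries, which leaves 6 residual degrees of freedom for the common spread. The p-values were adjusted by the Benjamini-Hochberg method over 18299 genes. Both knock-downs were also contrasted directly. Differences of single libraries from the control mean are in log2 CPM with a prior count of 2. Counts assigned per library ranged from 21764203 to 36110891; genes near 1 CPM thus rest on few counts. Scripts were tested on simulated data.

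Genes named are CCDC97, TTC33, PHF5A and WDR61; the 15 largest rises and 15 largest falls of called genes at a mean of 5 CPM or more; the 6 most abundant and the 4 of lowest adjusted p each way; called genes under 0.5 CPM in 1 group and at 2 CPM or more in the other; 3 lncRNA genes each way; up to 4 called members each way of each of 42 lists; and genes within 200 kb of CCDC97. MT-RNR1, MT-RNR2, LMLN2, CGA, ENSG00000277693, ALDOC, HOXC6, INSIG1, PLOD1, COL1A1 and MT-ND4L were named after their values were seen. Members, lists, chromosome 21, the stretches of chromosomes 3 and 14 and the 7-base sequence were chosen with earlier results of these data known. Alternatives were DESeq2 1.42.0, other scaling and filters, 2 groups alone, a replicate block, a GC and length correction (mgcv 1.9.3 smooth per library) and leaving out each library.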

Additional observations from a re-analysis of the deposited data

How the results depend on the processing

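How many genes were called depended on the fit. The 835 calls became 1369 with no filter on low counts, 1471 with DESeq2's Wald test, 1339 with 2 groups alone, 3509 with the GC and length correction, and 203 to 1981 when 1 library was left out. Higher genes (379) became 772 with DESeq2's Wald test, 594 with 2 groups, 2040 with the correction and 73 to 1006 with 1 library left out. Lower genes (456) became 852 with no filter, 699 with DESeq2's Wald test, 745 with 2 groups, 1469 with the correction and 130 to 975 with 1 library left out. Same-numbered control and knock-down libraries showed little correlation in their deviations from the group means (-0.03, 0.09 and 0.01, other pairs -0.08 to 0.06). With means of only 3 libraries, these values cannot tell whether the numbers mark shared batches. With a replicate block calls were 240 (98 higher, 142 lower), 1857 in the direct contrast and 34 lower on chromosome 21, and with the correction as well 3152 (1850 and 1302) and 115. Chosen after seeing the data, the correction without knock-down replicate 1 gave 3475 (2140 and 1335), and 2 groups alone without it gave 6706 (3404 and 3302) and 126 lower on chromosome 21. That chromosome had 115 with the correction and 34 to 103 with 1 library left out, and the direct contrast had 1528 to 7767. The share of lower genes holding GAGCAGA, 49.3%, was 38.9% with no filter, 43.5% with DESeq2's Wald test, 43.4% with 2 groups, 36.3% with the correction, 38.0% with correction and block, 36.5% and 27.7% in the added fits without knock-down replicate 1, and 36.9 to 54.6% with 1 library left out; the cause was not tested. Of 1029 counts of called list members under the alternatives, 529 were within 1.5 times the count reported.

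The median of chromosome 21 and the median difference with and without GAGCAGA moved by less than 1 SD over the knock-down libraries (0.038 and 0.024) in every alternative run. That SD rests on the same 3 libraries, so leaving out 1 of them is a weak check. Of 137 named genes that were called, all kept their sign in the 2581 fits that gave them a value (some low genes are absent under the 5 CPM filter). Their groups did not overlap, as for all 835 called genes, so leaving out 1 library could hardly change a sign. Of the 137, 61 were called in each of their fits. The block ended 64 calls, and leaving out control replicate 1, 2 or 3 ended 76, 74 or 68. Log2 fold changes not called that changed sign were PHF5A (-0.0217 with the correction and -0.0213 with correction and block), HNRNPUL1 (-0.0452 to 0.0933 with 1 library left out, and -0.0511 with 2 groups and no knock-down replicate 1), and, with 1 library left out, MT-RNR1 (-0.0450 to 3.55) and MT-RNR2 (-0.10 to 3.66).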
